A study of Mus musculus with 20 samples.

Results

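The hippocampus and the cortex of bulbectomised mice were compared by RNA sequencing, using the 10 libraries labelled HSP70 of the 20 in the series. Each region gave 5 libraries, and libraries with the same replicate number, 1 to 5, formed a pair. All donors were NMRI mice, an outbred stock, whose olfactory bulbs had been removed by surgery (olfactory bulbectomy). Human recombinant HSP70, at 4 µg per dose, was given through the nose each day for 21 days, starting 14 days after the surgery. The other 10 libraries came from bulbectomised NMRI mice given 6.4 µg of recombinant YB-1 on the same schedule, again 5 from each region, and served here as other animals in which the same regional difference was measured. Groups without surgery or without a delivered protein were not analysed here, so every value describes the regions of operated and treated animals. The labels give neither the age of the mice nor how the regions were dissected.

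The hippocampus is an archicortical structure in which granule cells of the dentate gyrus, mossy cells of the hilus and pyramidal cells of the CA fields are connected in a chain of excitatory synapses. The neocortex is built of layers, with projection neurons of the upper layers that mostly connect cortical areas and those of the deep layers that send axons to the thalamus, brainstem and spinal cord. HSP70 is a chaperone that binds unfolded proteins together with cochaperones, and YB-1 is a nucleic acid-binding cold shock protein. In bulbectomised rodents, memory loss and degeneration in both regions are studied as a model of Alzheimer-type pathology.

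Reads assigned to genes numbered 7756835 to 13053910 in the hippocampal libraries and 12283392 to 15148078 in the cortical ones, so the cortex was mostly sequenced deeper. Between 16889 and 19463 genes had a read in a hippocampal library, and between 19176 and 20712 in a cortical library. Bc1, a short noncoding RNA of neuronal dendrites, took 6.45% to 9.34% of reads in hippocampal libraries 1 to 4 and 20.3% in library 5, against 6.03% to 17.9% in the cortex. Hippocampal library 5 also had the fewest detected genes, and its pair had the widest spread of differences over all genes (SD 0.994 on the log2 scale, against 0.606 to 0.696 in the others). Hippocampal library 4 stood apart in markers of thalamic neurons, and cortical library 4 and hippocampal libraries 4 and 5 in markers of the choroid plexus. The values are given beside the results they touch. Whether depth bears on the regional differences was not tested.

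Between regions 1802 of 14307 tested genes (12.6%) differed, 856 of them higher in the hippocampus (5.98%) and 946 lower (6.61%). The test was edgeR's quasi-likelihood F-test with the pair as a block and Benjamini-Hochberg adjustment over all tested genes, and a gene was called when its adjusted p was under 0.05. The labels do not name the animals, so the p-values measure the spread between these samples. Of the calls, 1674 had the same direction in all 5 pairs, and for 1021 the 5 hippocampal and 5 cortical values did not overlap, as for 1261 of all tested genes (8.81%). A difference of at least 2-fold was called for 640 genes (4.47%), 364 higher (2.54%) and 276 lower (1.93%). Differences of at least 4-fold were more often higher in the hippocampus, with 115 genes higher and 43 lower. Over all tested genes the median log2 fold change, hippocampus minus cortex, was -0.0045, and 49.5% of genes had a positive value.

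Genes called higher took 6.88% to 8.22% of the reads of a hippocampal library and 4.01% to 4.35% of a cortical library, and genes called lower took 4.64% to 7.18% and 8.29% to 11.3%. Long noncoding RNAs were called higher for 11 and lower for 29 of 516 tested genes, and protein-coding genes for 843 and 899 of 13393. The share of genes called rose with the mean level of the gene, from 7.52% in the lowest quartile to 16.9% in the highest. The number of calls fell to 1117 without pair 1 and to 1146 (619 higher, 527 lower) with libraries taken as independent, and was 1937 without pair 5. With counts scaled by library totals alone, 874 genes were higher and 613 lower, a share of 58.8% higher in place of 47.5%.

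**Figure D1:**
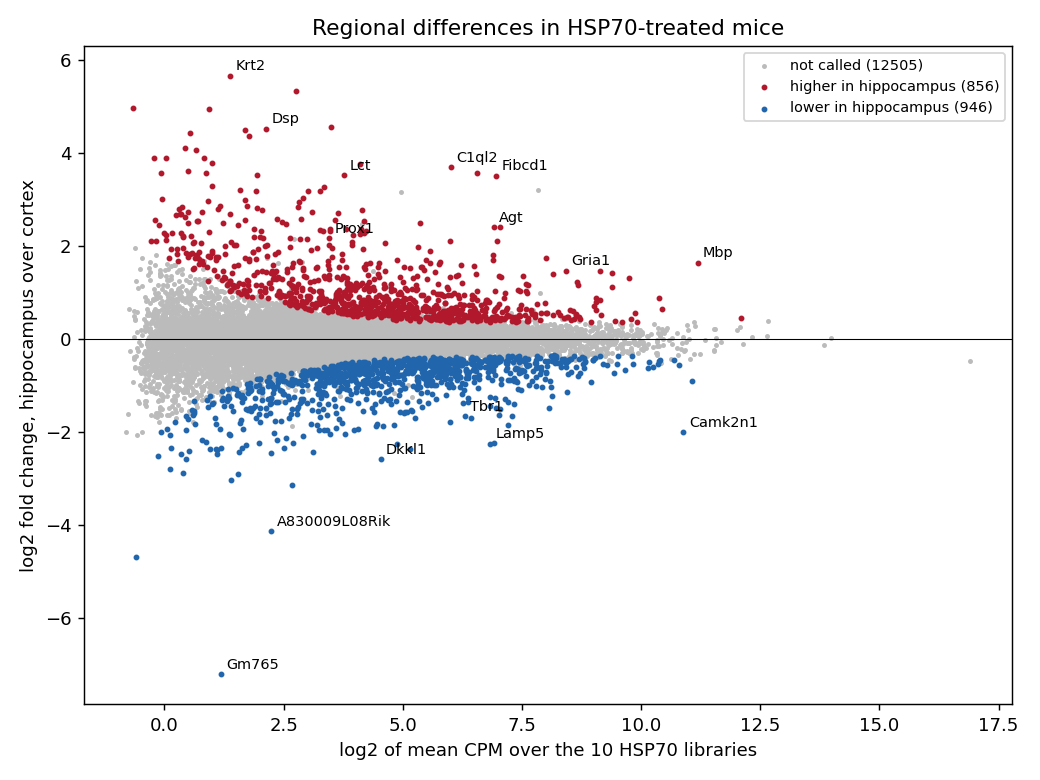
Log2 fold change of hippocampus over cortex (y axis) against the log2 of the mean CPM over the 10 HSP70 libraries (x axis), 1 point per tested gene. Red points are the 856 genes called higher in the hippocampus, blue points the 946 called lower, and grey points the rest. The red points reach further from 0 than most of the blue ones.

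The gene with the smallest p was Cabp7 (ENSMUSG00000009075), which encodes an EF-hand calcium-binding protein. Levels are in CPM, which scales each library to the same total, listed for replicates 1 to 5. Cabp7 was at 131, 208, 166, 216 and 145 CPM in the hippocampus and 12.1, 12.6, 14.9, 18.6 and 13.9 CPM in the cortex. Every hippocampal library lay far above every cortical library, a log2 fold change of 3.57 ± 0.14 (SE, n = 5 pairs) with an edgeR adjusted p of 1.25e-10. Doc2b, a calcium sensor of vesicle release, showed little spread, at 67.1, 69.96, 74.4, 75.7 and 63.8 CPM in the hippocampus and 12.1, 11.4, 12.1, 14.2 and 12.7 CPM in the cortex. The regions did not overlap for Doc2b (2.49 ± 0.13). In a sample of whole tissue, more cells of a type and more RNA per cell cannot be told apart, and this holds for all differences below. On the higher side the 15 genes of smallest p also included Lrrc10b (3.76 ± 0.20), the copine gene Cpne7 (2.41 ± 0.14), the extracellular matrix gene Olfml2b (2.53 ± 0.16) and the noncoding gene Gm26644 (5.33 ± 0.33). Krt2, a type II keratin gene, had the largest called difference on this side among genes with a mean of at least 1 CPM, 5.66 ± 0.49, from 5.11 ± 1.93 CPM in the hippocampus and 0.0889 ± 0.0616 CPM in the cortex (SD, n = 5). The calls of the genes named in this paragraph held when any single pair was left out.

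On the lower side Camk2n1 (ENSMUSG00000046447), which encodes an endogenous inhibitor of the kinase CaMKII, was at 771, 628, 738, 879 and 757 CPM in the hippocampus and 2941, 2572, 3534, 2932 and 3203 CPM in the cortex. The lowest cortical value was more than 2 times the highest hippocampal value, with a log2 fold change of -2.01 ± 0.12 and an edgeR adjusted p of 1.83e-08. Cabp1, the gene of the neuronal calcium-binding protein caldendrin, was lower by a similar margin (-1.85 ± 0.12). Stx1a, which encodes the presynaptic fusion protein syntaxin 1A, was at 142 ± 8.74 CPM in the hippocampus and 397 ± 53.04 CPM in the cortex (SD, n = 5), -1.47 ± 0.12 on the log2 scale. Lower genes with a smallest p also included Dkkl1, a Dickkopf-like gene (-2.58 ± 0.19), the exchange factor gene Rasgef1c (-2.26 ± 0.16), Gucy1a1, a subunit of the nitric oxide receptor guanylate cyclase (-1.88 ± 0.16), Arpp21, a cAMP-regulated phosphoprotein gene (-1.39 ± 0.12), and Gsg1l, an auxiliary subunit of AMPA receptors (-1.54 ± 0.13). The noncoding gene A830009L08Rik was at 0.495 ± 0.0904 CPM in the hippocampus and 8.94 ± 1.74 CPM in the cortex, with a log2 fold change of -4.13 ± 0.29. Gm765 was at 0, 0, 0, 0.0738 and 0 CPM in the hippocampus and 6.73, 3.17, 3.44, 4.603 and 4.61 CPM in the cortex. No fold is given for it, because hippocampal library 4 alone held a read of it.

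Markers of hippocampal pyramidal cells were mostly higher in the libraries labelled hippocampus, and those of dentate granule cells were mixed. Of 19 tested genes of pyramidal cells 11 were called higher and 0 lower, with a median log2 fold change of 0.83. Of 17 tested genes of dentate granule cells 7 were higher and 2 lower, with a median of 0.16. By sign, 9 granule cell genes were above 0 and 8 below, and the pair medians ran from -0.055 to 0.43. Beside the called genes of both lists stand 5.98% of all tested genes called higher and 6.61% called lower. The lists were written with earlier results of these data known, and a tissue's own markers describe its identity.

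Fibcd1 (ENSMUSG00000026841), the gene of a membrane receptor for acetylated ligands that marks CA1 pyramidal cells, was at 159.5, 244, 196, 238 and 310.2 CPM in the hippocampus and 11.8, 22.6, 23.01, 22.8 and 20.1 CPM in the cortex. The hippocampal values did not overlap the cortical values and were about 11.4 times as high by the fitted value (3.52 ± 0.14, edgeR adjusted p = 1.9e-10). Homer3, a postsynaptic scaffold gene, was at 29.4 ± 6.13 CPM in the hippocampus and 5.62 ± 1.103 CPM in the cortex (2.37 ± 0.17), and Neurod6, a transcription factor of excitatory neurons, at 52.5 ± 8.43 CPM in the hippocampus and 18.1 ± 3.47 CPM in the cortex (1.53 ± 0.14). Amigo2, an adhesion gene of the CA2 and CA3 fields, was higher (1.82 ± 0.17), as was Grik4, a kainate receptor subunit of CA3 (0.83 ± 0.16). Zbtb20, a repressor that specifies hippocampal pyramidal fate, had a smaller difference (0.90 ± 0.17), with overlapping values. Wfs1, used as a CA1 marker, was not called, at 195 ± 28.9 CPM in the hippocampus and 218 ± 55.2 CPM in the cortex (SD, n = 5). Iyd, Galnt3 and Map3k15 had too few reads to be tested.

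Among granule cell genes, C1ql2 (ENSMUSG00000036907), a secreted organiser of mossy fibre synapses, was at 74.3, 114, 134, 139 and 132 CPM in the hippocampus and 6.38, 17.9, 8.57, 7.67 and 7.17 CPM in the cortex. No cortical library came near the lowest hippocampal library, number 1, and the log2 fold change was 3.70 ± 0.20. Prox1, the homeodomain factor that maintains granule cell identity, was at 19.2, 14.6, 20.4, 20.1 and 15.2 CPM in the hippocampus and 4.205, 5.17, 3.104, 4.07 and 3.44 CPM in the cortex (2.17 ± 0.20). The desmoplakin gene Dsp (4.53 ± 0.50), the lactase gene Lct (3.53 ± 0.22) and Sema5a, a semaphorin (1.64 ± 0.15), were higher in all 5 pairs too. The members called lower were Plk5 (-0.74) and Akap7 (-0.73), and Akap7 lost its call without pair 1, 4 or 5 (-0.72 to -0.48, edgeR adjusted p = 0.0826 to 0.132). Leaving out pair 1, 4 or 5 left 1 granule cell gene lower.

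Calb2, which encodes calretinin and marks hilar mossy cells in mice as well as thalamic neurons and some interneurons, was at 69.7, 134, 95.3, 147 and 74.9 CPM in the hippocampus and 21.2, 24.8, 25.2, 23.9 and 20.8 CPM in the cortex. The regions did not overlap, but libraries 2 and 4 were the highest in the hippocampus (2.11 ± 0.15). Of the other 5 mossy cell genes, the dopamine receptor gene Drd2 was called higher (1.68 ± 0.34, 4 of 5 pairs) and Csf2rb2 lower, a call lost without pair 1 or 3 (-1.09 to -1.02, edgeR adjusted p = 0.0638 to 0.0723). Drd2 was at 4.44, 4.76, 9.77, 17.1 and 18.8 CPM in the hippocampus, highest in libraries 4 and 5, and at 1.89 to 5.09 CPM in the cortex. In the mice given YB-1 the log2 fold change of Drd2 was 0.17 ± 0.80, and it was not called. Ajap1, Nmb and Glra3 were not called, with log2 fold changes of -0.22, -0.66 and -1.46. Without pair 5 the list had 2 lower genes, and in a fit of all 20 libraries it had 1 higher gene.

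Markers of upper-layer cortical neurons were lower in the hippocampus. Of 18 tested members 12 were called lower and 1 higher, beside 6.61% and 5.98% of all tested genes. The median was -1.20, and it was between -1.54 and -0.92 in each pair. Lamp5 (ENSMUSG00000027270), a lysosome-associated membrane protein gene of upper-layer neurons and neurogliaform cells, was at 44.2, 31.5, 49.97, 31.4 and 43.1 CPM in the hippocampus and 196, 175, 169.7, 175 and 226 CPM in the cortex. Its cortical values were all more than 2 times its highest hippocampal value (-2.25 ± 0.13, edgeR adjusted p = 1.82e-08). Cux2 (ENSMUSG00000042589), the homeobox gene of layers II to IV, was at 31.6, 26.9, 27.04, 26.2 and 31.3 CPM in the hippocampus and 101, 107, 83.7, 106 and 94.01 CPM in the cortex (-1.78 ± 0.12). The related Cux1 (-1.09), Rorb, a nuclear receptor gene of layer IV (-1.64) and the exchange factor gene Rasgrf2 (-1.26) were lower with no overlap of the regions. Mdga1, a glycosylphosphatidylinositol-anchored adhesion gene listed as an upper-layer marker, went the other way, at 54.6, 72.7, 65.6, 59.6 and 66.5 CPM in the hippocampus and 12.2, 13.1, 16.3, 20.3 and 19.3 CPM in the cortex. All 5 hippocampal values of Mdga1 exceeded the cortical ones (1.99 ± 0.15). Without pair 4 the list had 2 higher genes.

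Deep-layer markers did not move as 1 group. Of 24 tested genes 8 were lower and 4 higher, beside 6.61% and 5.98% of all tested genes, with a list median of -0.24. Tbr1 (ENSMUSG00000035033), the T-box factor of layer VI, was at 57.2, 37.7, 32.6, 36.7 and 28.4 CPM in the hippocampus and 134, 126, 126, 105 and 103 CPM in the cortex. The regions did not overlap for Tbr1, and hippocampal library 1 was its highest (-1.66 ± 0.13). Foxp2 (-1.50), Deptor (-1.15), Ddit4l (-1.48) and the complexin gene Cplx3 (-0.81) were lower as well, and Ntsr1 and Tle4 of layer VI were not called (-0.53 and -0.10). The 4 higher members were Crym, Tshz2, Fezf2 and Etv1. Crym, which encodes a thyroid hormone-binding crystallin, was at 154, 261, 182, 166 and 255 CPM in the hippocampus and 39.7, 59.6, 41.3, 48.4 and 44.3 CPM in the cortex (2.10 ± 0.13), and Tshz2, a zinc finger gene, at 44.9 ± 11.7 CPM in the hippocampus and 19.02 ± 4.31 CPM in the cortex (1.22 ± 0.15). Fezf2 (0.64) lost its call without pair 1, 2, 3 or 4 (0.51 to 0.64, edgeR adjusted p = 0.0558 to 0.0858). Etv1 (0.47) lost it without pair 1, 2, 3, 4 or 5 (0.37 to 0.53, edgeR adjusted p = 0.0524 to 0.134). The count of higher members was 2 without pair 1, 2 or 4 and 3 without pair 3 or 5.

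**Figure D2:**
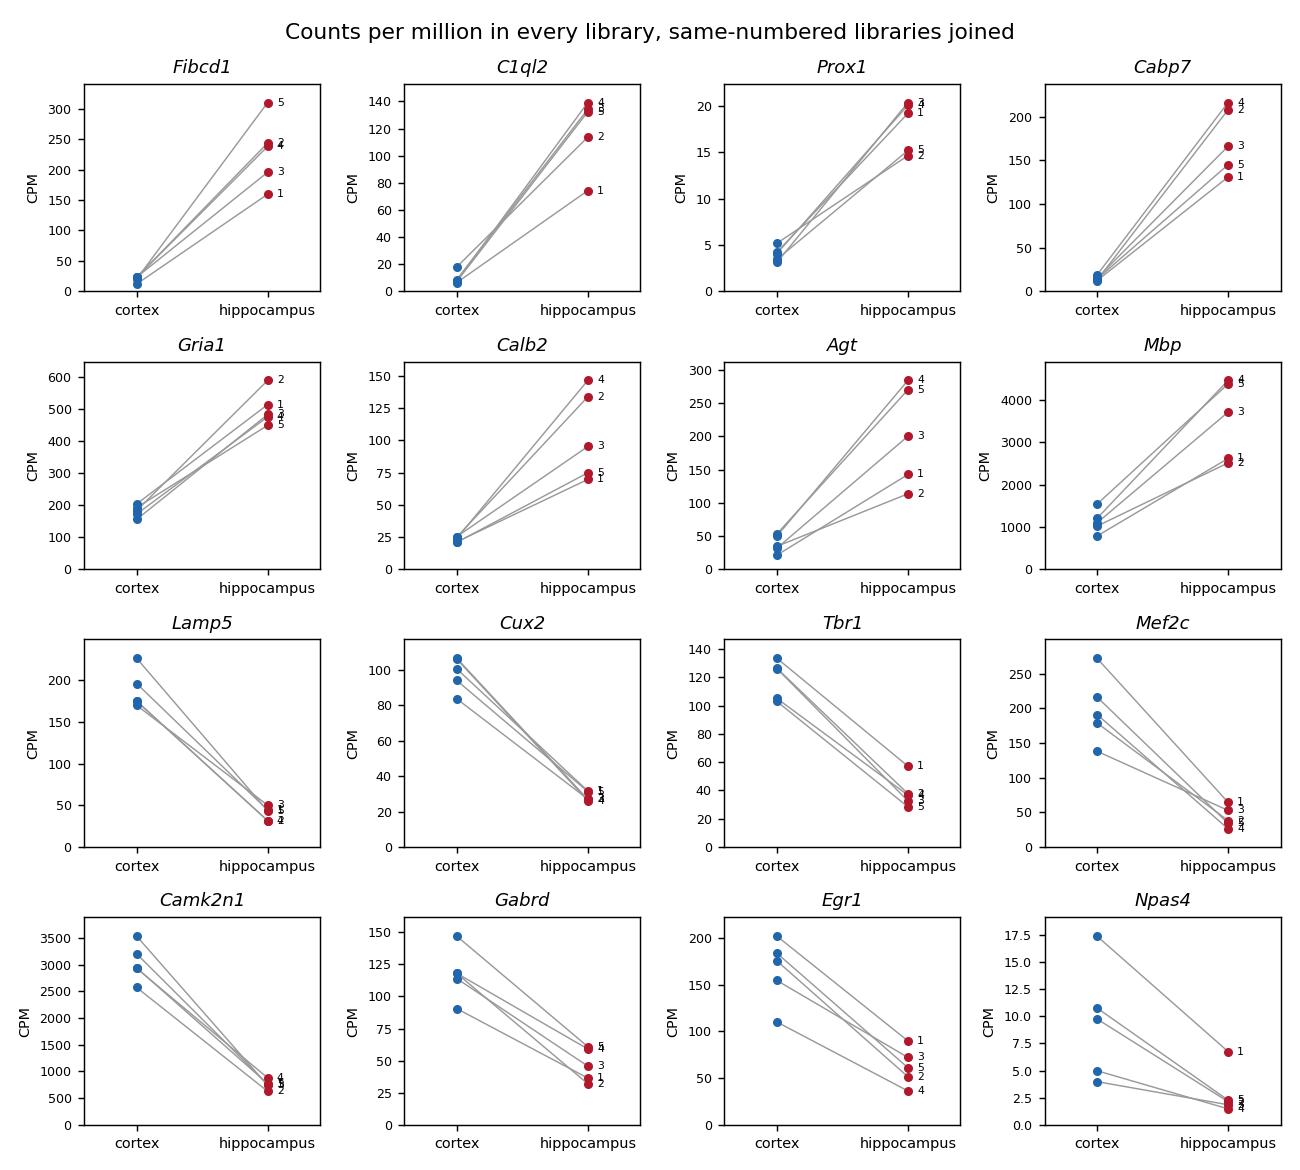
CPM (y axis, linear, from 0) of 16 genes in the cortical (blue) and hippocampal (red) library of each pair, joined by a line and numbered by replicate. The regions do not overlap in 15 of the panels, and Npas4 is the gene whose cortical and hippocampal values do.

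Transcription factors of the developing telencephalon differed by region, with 16 of 42 tested genes called lower in the hippocampus and 7 higher (median -0.31). Over all tested genes 6.61% were lower and 5.98% higher. Mef2c (ENSMUSG00000005583), a MADS-box factor that regulates synapse number, was at 64.4, 38.1, 52.7, 26.2 and 34.2 CPM in the hippocampus and 272, 179, 138, 191 and 216 CPM in the cortex. The lowest cortical value was above the highest hippocampal value by more than 2 times (-2.24 ± 0.18). Lower genes also included Satb1 (-1.16), Emx1 (-1.20), Foxp1 (-1.29), Tshz3 (-1.56), the orphan receptor gene Nr2f1 (-0.92) and the LIM-only gene Lmo4, at 192 ± 41.8 CPM in the hippocampus and 356 ± 70.4 CPM in the cortex (-0.89 ± 0.14). Beside Prox1, Neurod6, Tshz2, Zbtb20 and Fezf2, the higher members were the POU factor gene Pou3f1 (1.04 ± 0.16) and Nr2f2 (1.03), whose call ended without pair 1 (0.96, edgeR adjusted p = 0.0679). Neurod2 and Bcl11b, which both regions express, were not called (0.18 and 0.31).

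Interneuron genes and neuropeptides divided by type. Of 23 tested genes of GABAergic neurons 6 were lower and 0 higher (median -0.13), beside 6.61% and 5.98% of all tested genes. Without pair 5, 2 genes of GABAergic neurons were higher. Vip, the vasoactive intestinal peptide gene of a class of cortical interneurons, was at 10.7, 4.76, 5.35, 7.38 and 4.56 CPM in the hippocampus and 31.7, 22.3, 29.6, 18.9 and 22.8 CPM in the cortex (-1.96 ± 0.19). Npy, which encodes neuropeptide Y, was at 41.9, 48.7, 26.3, 40.1 and 39.8 CPM in the hippocampus and 103, 179.9, 193, 106 and 85.5 CPM in the cortex (-1.70 ± 0.21). Neither peptide gene had overlapping regions. Crh, the corticotropin-releasing hormone gene (-1.75 ± 0.32), the parvalbumin gene Pvalb (-0.88 ± 0.17) and the transcription factor gene Maf (-0.95 ± 0.18) were lower, as was somatostatin, Sst (-0.61), which lost its call without pair 3 (-0.40, edgeR adjusted p = 0.0913). The GABA-synthesising enzymes Gad1 and Gad2, carried by all GABAergic neurons, were not called (-0.26 ± 0.13 and -0.34 ± 0.14), nor was the vesicular transporter Slc32a1 (-0.13) or reelin, Reln (-0.07).

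Of 31 tested neuropeptide and hormone genes 8 were lower and 4 higher, beside 6.61% and 5.98% of all tested genes. The lower ones, besides those above, included the opioid precursor gene Pdyn, at 19.8, 11.5, 16.04, 18.01 and 16.7 CPM in the hippocampus and 42.8, 42.6, 45.01, 38.3 and 37.4 CPM in the cortex. Pdyn did not overlap between regions (-1.34 ± 0.15). Cartpt was lower (-2.36), with its call lost without pair 3, 4 or 5 (-2.52 to -2.12, edgeR adjusted p = 0.0907 to 0.154). The 4 higher genes were Trh, which encodes thyrotropin-releasing hormone (2.52 ± 0.30, from 9.27 ± 1.04 CPM in the hippocampus and 1.77 ± 1.14 CPM in the cortex), neurotensin, Nts (3.02 ± 0.59), the neurotrophin gene Ntf3 (1.56 ± 0.32) and the gastrin-releasing peptide gene Grp (0.93 ± 0.22). Bdnf and cholecystokinin, Cck, were not called (0.29 ± 0.22 and -0.45 ± 0.15). Without pair 3 the list had 5 lower genes.

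Subunits of the same receptor families pointed in opposite directions. Among 28 tested ionotropic glutamate receptor genes and auxiliary subunits 6 were higher and 7 lower, beside 5.98% and 6.61% of all tested genes. The list median was 0.07. Gria1 (ENSMUSG00000020524), the GluA1 subunit of AMPA receptors, was at 514, 589.7, 483, 476 and 449 CPM in the hippocampus and 204, 183, 155, 172 and 192 CPM in the cortex. Every hippocampal library was more than 2 times the highest cortical library (1.47 ± 0.12). The auxiliary subunit gene Shisa6 had a larger ratio, at 34.8, 43.2, 26.2, 27.8 and 23.2 CPM in the hippocampus and 4.56, 4.59, 4.18, 4.53 and 4.1 CPM in the cortex (2.79 ± 0.17), and Cnih2 (0.88 ± 0.13) and Cacng8 (0.70 ± 0.11) were higher without overlap. Gria3 (-0.80 ± 0.16), Gria4 (-0.88 ± 0.16), Cacng3 (-0.87 ± 0.17) and stargazin, Cacng2 (-1.05 ± 0.17), were lower. Gria2, which sets the calcium permeability of AMPA receptors, was lower (-0.42) with its call lost without pair 1, 3, 4 or 5 (-0.45 to -0.33, edgeR adjusted p = 0.0662 to 0.137). Grin2b, an NMDA receptor subunit gene (-0.65), lost its call without pair 2 or 4 (-0.53 to -0.48, edgeR adjusted p = 0.0525 to 0.0879), and the obligatory NMDA subunit gene Grin1 was not called (-0.09 ± 0.12). Without pair 4 the list had 4 lower genes. edgeR called 0 of 7 metabotropic glutamate receptor genes, also when any single pair was left out, with an unadjusted p of 0.028 for Grm3 and log2 fold changes from -0.43 (Grm3) to 0.03 (Grm7).

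Among 14 tested GABA receptor genes Gabra5 was called higher and 5 genes lower, beside 5.98% and 6.61% of all tested genes. Gabra5, the alpha 5 subunit of extrasynaptic GABA-A receptors of pyramidal cells, was at 47.2, 59.4, 34.96, 41.5 and 42.1 CPM in the hippocampus and 16.5, 12.1, 13.6, 13.3 and 13.03 CPM in the cortex (1.70 ± 0.15). Gabrd, the delta subunit of another extrasynaptic receptor, went the other way, at 36.5, 32.01, 45.8, 59.1 and 60.9 CPM in the hippocampus and 90.5, 118, 114, 118 and 147 CPM in the cortex (-1.35 ± 0.13). Both genes separated the regions completely. The synaptic subunit gene Gabra3 (-0.87 ± 0.12) was lower too.

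Of 32 tested monoamine and acetylcholine receptor genes 8 were higher and 5 lower, beside 5.98% and 6.61% of all tested genes. The dopamine D5 receptor gene Drd5 was at 3.57, 2.97, 2.16, 3.099 and 5.16 CPM in the hippocampus and 0.3504, 0.2501, 0.2699, 0.0767 and 0.439 CPM in the cortex. It was low in both regions and still did not overlap (3.57 ± 0.45). The serotonin receptor gene Htr5b was higher (2.45 ± 0.40, from 5.04 ± 3.62 CPM in the hippocampus and 0.794 ± 0.206 CPM in the cortex), as were Htr2c (0.87 ± 0.20) and the adrenergic receptor genes Adra1d (0.70 ± 0.14) and Adra2c (0.70 ± 0.14). The beta 1 adrenergic receptor gene Adrb1 (-1.19 ± 0.18), Htr2a (-1.02 ± 0.24), Adra1b (-0.82 ± 0.18) and the muscarinic receptor gene Chrm3 (-0.56 ± 0.13) were lower.

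The receptors of corticosteroids differed in direction. Nr3c2, the mineralocorticoid receptor gene, was at 38.5, 45.1, 33.4, 36.5 and 28.6 CPM in the hippocampus and 19.4, 9.59, 13.7, 13.9 and 10.03 CPM in the cortex (1.47 ± 0.17). Nr3c1, the glucocorticoid receptor gene, was at 30.2, 20.9, 23.1, 18.3 and 14.4 CPM in the hippocampus and 43.6, 27.7, 28.6, 31.9 and 31.5 CPM in the cortex (-0.63 ± 0.15). The mineralocorticoid receptor gene was higher in the hippocampus without overlap, and the glucocorticoid receptor gene was lower with overlapping values. Hsd11b1, whose enzyme regenerates active corticosteroids (0.93 ± 0.17), and the induced kinase gene Sgk1 (0.67 ± 0.15) were higher, and the receptor gene Crhr1 was lower (-0.88 ± 0.15). In all, 4 of 13 tested genes of this list were higher and 4 lower, beside 5.98% and 6.61% of all tested genes. Without pair 3, 2 genes of the list were lower.

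Potassium channel genes were more often lower, 13 of 40, than higher, 2 of 40 (median -0.10), beside 6.61% and 5.98% of all genes. Kcnh7, an ether-a-go-go-related channel gene, was at 5.69, 3.69, 4.22, 1.33 and 4.405 CPM in the hippocampus and 28.9, 10.9, 10.7, 11.05 and 13.7 CPM in the cortex (-1.97 ± 0.24). Its regions did not overlap, and neither did those of Kcnh3 (-0.91 ± 0.11), the delayed rectifier gene Kcna2 (-0.98 ± 0.12) or the modifier subunits Kcns1 (-1.09 ± 0.16) and Kcnv1 (-1.14 ± 0.16). Kcng2, another modifier subunit, was higher, at 16.6, 26.2, 30.9, 30.03 and 54.1 CPM in the hippocampus and 3.71, 6.09, 6.55, 7.52 and 6.004 CPM in the cortex (2.33 ± 0.19), and so was Kcnab1 (0.78 ± 0.17). Without pair 5, which holds the hippocampal library with the most Bc1, 6 channel genes were higher and 12 lower.

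Genes of axon guidance, which act again in the adult at synapses, were called in both directions, 11 higher and 8 lower of 41. Over all tested genes 5.98% were higher and 6.61% lower. The ligand gene Slit1 (ENSMUSG00000025020) was at 160.1, 226, 179, 184 and 182 CPM in the hippocampus and 38.97, 65.4, 51.01, 56.8 and 53.8 CPM in the cortex (1.82 ± 0.12). The ephrin gene Efnb3 was at 159.6, 172, 178, 199.8 and 192 CPM in the hippocampus and 44.6, 56.4, 49.3, 64.97 and 65.5 CPM in the cortex (1.69 ± 0.12). Both were more than 2 times as high in the lowest hippocampal library as in the highest cortical library. The neuropilin genes Nrp1 (1.29 ± 0.17) and Nrp2 (0.97 ± 0.16), receptors of secreted semaphorins, the receptor gene Plxna1 (0.73 ± 0.12) and Slit3 (0.84 ± 0.14) were higher. Sema3a, a repulsive ligand of neuropilin 1, was lower, at 2.41, 0.476, 0.411, 0.959 and 0.608 CPM in the hippocampus and 7.64, 3.75, 4.99, 3.38 and 4.98 CPM in the cortex (-2.44 ± 0.36). Efna5 (-1.95 ± 0.23) and Plxnd1 (-1.64 ± 0.16) were lower without overlap. Without pair 3 the list had 5 lower genes and without pair 4 it had 4.

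Cadherins and protocadherins, homophilic adhesion proteins, were higher for 5 and lower for 8 of 26 tested genes. Beside this list and the next stand 5.98% of all tested genes called higher and 6.61% called lower. Pcdh20 (1.62 ± 0.19), Cdh24 (0.93 ± 0.18) and Cdh8 (0.72 ± 0.16) were higher, and Cdh6 (-1.95 ± 0.25), Cdh12 (-2.07 ± 0.39) and Pcdh7 (-1.38 ± 0.20) were lower. Without pair 1 there were 5 lower genes. Among 24 neurexins, their partners and C1q-like proteins 3 were higher and 6 lower. Besides C1ql2, the postsynaptic gene Lrrtm1 was higher (0.98 ± 0.13) and its paralog Lrrtm3 lower (-1.08 ± 0.16). The neurexin gene Nrxn3 (-0.60 ± 0.12) was lower, as was the pentraxin gene Nptx2 (-0.81 ± 0.15). Without pair 1 this list had 4 lower genes.

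Genes of adult neurogenesis, a process of the dentate gyrus, were called higher for 5 and lower for 2 of 15 tested genes. Over all tested genes 5.98% were higher and 6.61% lower. The list did not move as 1 group, with 7 genes above 0, 8 below and a median fitted value of -0.20. The medians of single pairs ran from 0.034 to 0.36. The summed level had a median of 1040 CPM in the hippocampus and 1206 CPM in the cortex. Igfbpl1 (4.06 ± 0.76), Hopx, a homeodomain gene of neural stem cells and astrocytes (1.24 ± 0.19), the cyclin gene Ccnd2 (0.61 ± 0.14) and Calb2 were higher, with Draxin (1.75), which lost its call without pair 1, 2, 3 or 4 (1.44 to 1.99, edgeR adjusted p = 0.0545 to 0.143). Calb2 is also counted among the mossy cell and thalamic genes. Doublecortin, Dcx, a microtubule protein of immature neurons, was lower (-1.08), a call that ended without pair 1, 2, 3, 4 or 5 (-1.23 to -0.92, edgeR adjusted p = 0.0574 to 0.144). Stmn1, the stathmin gene, was lower in every fit, at 117 ± 19.2 CPM in the hippocampus and 219.9 ± 18.6 CPM in the cortex (-0.92 ± 0.13). Mki67, Top2a, Cdk1, Eomes and Tfap2c, which mark dividing or early progenitors, had too few reads to be tested. Without pair 1, 3 or 5, 1 gene was lower, and without pair 2, 3 genes were.

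Immediate early genes, which neurons transcribe within minutes of activity, were more often lower than higher in the hippocampus. Of 24 tested genes 12 were called lower and 3 higher, with a median of -0.60, beside 6.61% and 5.98% of all tested genes. The 12 lower genes included Egr1, Npas4, Fos, Egr2, Homer1, Egr3, Egr4 and Arc, and the 3 higher were Nr4a3, Jun and Fosl2. Many of these genes are induced through CREB, a factor that binds the cAMP response element (CRE). The promoters of 3 genes that were lower and of Nr4a3, which was higher, are printed to show the short CRE core, TGACG or its reverse complement CGTCA, in capitals. They are the 250 bases before the RefSeq start in GRCm38.p6, written 5′ to 3′ along the gene's strand.
Fos, chr12:85473640-85473889, plus strand: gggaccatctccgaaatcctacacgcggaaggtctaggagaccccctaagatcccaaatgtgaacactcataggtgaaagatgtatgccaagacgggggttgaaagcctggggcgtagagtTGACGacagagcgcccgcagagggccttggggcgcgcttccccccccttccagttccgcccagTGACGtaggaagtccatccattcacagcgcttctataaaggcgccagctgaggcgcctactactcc
Npas4, chr19:4989972-4990221, minus strand: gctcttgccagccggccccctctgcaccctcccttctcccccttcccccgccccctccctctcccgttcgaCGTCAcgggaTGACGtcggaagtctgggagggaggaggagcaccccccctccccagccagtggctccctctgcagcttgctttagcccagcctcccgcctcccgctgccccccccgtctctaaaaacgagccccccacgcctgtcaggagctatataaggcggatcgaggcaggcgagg
Nr4a1, chr15:101266596-101266845, plus strand: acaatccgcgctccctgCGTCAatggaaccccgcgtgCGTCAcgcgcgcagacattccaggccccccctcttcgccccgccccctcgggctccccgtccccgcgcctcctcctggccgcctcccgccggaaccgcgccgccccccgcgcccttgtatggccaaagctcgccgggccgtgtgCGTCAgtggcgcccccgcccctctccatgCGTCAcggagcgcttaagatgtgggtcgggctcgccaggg
Nr4a3, chr4:48045055-48045304, plus strand: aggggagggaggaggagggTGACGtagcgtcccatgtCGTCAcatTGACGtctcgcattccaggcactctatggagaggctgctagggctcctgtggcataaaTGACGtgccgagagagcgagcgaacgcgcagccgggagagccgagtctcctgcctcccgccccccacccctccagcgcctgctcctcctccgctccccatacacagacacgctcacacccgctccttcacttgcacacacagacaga

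The core occurs 2 times before Fos and Npas4 and 4 times before Nr4a1 and Nr4a3. It was found in the same window of 17.8% of the 32851 RefSeq promoters of the table, and 4 or more cores in 0.137%. Counted by gene, 19.8% held it in at least 1 promoter. Of the immediate early genes, 19 had a promoter in the table, and 15 of them held the core in at least 1 promoter. The core was present for 8 of 8 lower genes, 1 of 3 higher genes and 6 of 8 genes that were not called. Jun and Fosl2 had none in this window. The full element TGACGTCA, which holds the core on both strands, was in 1.55% of promoters. None of the called genes with a promoter in the table held it, and Dusp1 and Btg2, which were not called, did. The called genes Egr1, Egr3, Arc and Nptx2 had no promoter in the table and were not searched. A match describes letters in a window and is not a binding site.

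Egr1 (ENSMUSG00000038418), a zinc finger factor expressed at rest in cortex, was at 89.7, 51.4, 72.1, 36.2 and 61.1 CPM in the hippocampus and 202, 175, 154, 109.9 and 183 CPM in the cortex. The highest hippocampal value came from library 1 and the lowest from library 4, and all 5 were below the lowest cortical value (-1.44 ± 0.13, edgeR adjusted p = 1.06e-06). Npas4, which responds to calcium entry in neurons, was at 6.75, 2.14, 1.85, 1.48 and 2.28 CPM in the hippocampus and 17.4, 9.76, 3.98, 4.99 and 10.8 CPM in the cortex. It was lower in the hippocampus of every pair, but pair 1 was high in both regions, so that the regions overlapped (-1.71 ± 0.25). Fos was at 8.39, 6.43, 5.14, 4.94 and 3.04 CPM in the hippocampus and 29.9, 18.3, 8.77, 8.13 and 14.4 CPM in the cortex (-1.397 ± 0.23), also with pair 1 highest in each region. The scaffold gene Homer1 (-1.26 ± 0.19) and Egr2 (-2.36 ± 0.43) were lower. Arc (-0.67), Junb (-0.60), Fosb (-0.62) and Nr4a1 (-0.64) were called lower with less margin. Arc lost its call without pair 1 (-0.61, edgeR adjusted p = 0.065), Junb without pair 1 (-0.50, edgeR adjusted p = 0.0798), Fosb without pair 4 (-0.53, edgeR adjusted p = 0.093), and Nr4a1 without pair 1, 2, 3 or 5 (-0.74 to -0.46, edgeR adjusted p = 0.0792 to 0.235).

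Nr4a3, an orphan nuclear receptor gene, went against its paralog, at 21.02, 20.5, 20.2, 21.03 and 13.1 CPM in the hippocampus and 11.7, 6.17, 12.2, 3.91 and 5.93 CPM in the cortex. The regions did not overlap (1.34 ± 0.22). Jun, the partner of Fos in AP-1, was at 67.4, 88.9, 64.8, 66.9 and 43.1 CPM in the hippocampus and 42.5, 40.8, 41.7, 38.8 and 38.9 CPM in the cortex, again without overlap (0.68 ± 0.14). Fosl2 was higher with overlap (0.76 ± 0.17). Bdnf, Nr4a2, Dusp1 and Ier2 were not called (0.29, -0.38, -0.53 and -0.61).

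Myelin genes were higher in the hippocampal libraries, 19 of 23 tested, beside 5.98% of all tested genes. The median was 1.22, and it was between 0.91 and 1.79 in each pair. Mbp (ENSMUSG00000041607), the myelin basic protein gene, was at 2619.9, 2514, 3716, 4468 and 4383 CPM in the hippocampus and 783, 1017, 1094, 1201 and 1538 CPM in the cortex. Libraries 4 and 5 had the highest values, and the lowest hippocampal value exceeded the highest cortical one (1.64 ± 0.12). Mobp, another structural protein gene of myelin, was at 362, 287, 395, 492 and 442 CPM in the hippocampus and 105, 93.2, 94.6, 135 and 175 CPM in the cortex (1.74 ± 0.13). Mog (1.59 ± 0.14) and Mag (1.401 ± 0.14) were higher too. Apod, Ptgds, Enpp2 and Klk6 were the members that were not called (0.12, -0.43, 0.99 and 0.88). The labels do not say whether the fimbria or other fibre tracts were taken with the hippocampus. Oligodendrocyte precursor genes moved less, with 5 of 12 higher and a median of 0.35. They were Sox10 (1.08 ± 0.17), Olig1 (0.63 ± 0.12), Olig2 (0.68 ± 0.15), Enpp6 (1.60 ± 0.32) and C1ql1 (0.77 ± 0.17), and Pdgfra and Cspg4 were not called (0.32 and 0.28).

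Astrocyte genes were higher for 7 and lower for 1 of 22 tested, beside 5.98% and 6.61% of all tested genes. The list median was 0.12. Agt (ENSMUSG00000031980), the angiotensinogen gene of astrocytes, was at 143, 114, 200.4, 284 and 270.4 CPM in the hippocampus and 21.02, 34.3, 31.6, 49.7 and 53.1 CPM in the cortex. Libraries 4 and 5 were the highest in both regions, and the regions did not overlap (2.41 ± 0.15). Gfap, the astrocyte intermediate filament gene, was at 1573, 1353, 1679, 2273 and 1698 CPM in the hippocampus and 757, 855, 1089, 1145 and 800.2 CPM in the cortex (0.88 ± 0.12), and the thrombospondin gene Thbs4 at 39.0 ± 12.2 CPM in the hippocampus and 10.6 ± 7.22 CPM in the cortex (2.07 ± 0.23). Chrdl1, which encodes an astrocyte protein that matures synapses, was the lower member (-1.78 ± 0.29). Slc1a3, Gja1, Aldh1l1 and Sox9, carried by astrocytes of both regions, were not called (-0.02, -0.02, -0.13 and 0.04). Without pair 1 the higher genes numbered 4.

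Of the microglial genes 2 of 20 were called and of the endothelial genes 3 of 18, all lower. These shares, 10% and 16.7%, were near the 12.6% of all tested genes called in either direction. The microglial genes were the protease gene Ctss, at 141 ± 65.1 CPM in the hippocampus and 221 ± 96.8 CPM in the cortex (-0.67), and the purinergic receptor gene P2ry12, at 6.84 ± 3.16 CPM in the hippocampus and 12.8 ± 0.973 CPM in the cortex (-0.99). Ctss lost its call without pair 1, 2, 3 or 5 (-0.65 to -0.52, edgeR adjusted p = 0.076 to 0.0877) and P2ry12 without pair 1 or 4 (-1.05 to -0.9999, edgeR adjusted p = 0.0525 to 0.0564). The count was 0 without pair 1 and 3 without pair 5, where C1qa and C1qc gained a call. Of the endothelial genes, Ly6a kept its call without any single pair (-0.50 ± 0.12). Flt1, a receptor of vascular growth factor (-0.64), lost its call without pair 4 or 5 (-0.62 to -0.44, edgeR adjusted p = 0.0549 to 0.0792), and the transporter gene Slco1a4 (-0.64) without pair 1, 3 or 5 (-0.63 to -0.52, edgeR adjusted p = 0.0586 to 0.176). The count was 1 without pair 5.

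Markers of tissue next to the hippocampus were higher in hippocampal libraries, unevenly. Of 12 tested choroid plexus genes 7 were higher and 0 lower, with a median of 2.78, beside 5.98% and 6.61% of all tested genes called. The choroid plexus genes summed to 66.6, 170.1, 48.0, 872 and 1878 CPM in hippocampal libraries 1 to 5. In cortical libraries 1 to 5 the sums were 22.0, 15.9, 16.1, 174.7 and 28.8 CPM. Hippocampal libraries 4 and 5 were several times above the rest, and cortical library 4 was above the hippocampal libraries 1, 2 and 3. Ttr, the transthyretin gene that defines the choroid plexus, was at 37.6, 127, 24.5, 633 and 1295 CPM in the hippocampus and 8.55, 7.42, 8.84, 129 and 13.8 CPM in the cortex, and was not called (3.20 ± 0.98). Kl, the klotho gene (2.57 ± 0.31), and the bicarbonate transporter gene Slc4a5 (3.03 ± 0.48) were called, and without pair 5 Slc4a5 was at 2.01 (edgeR adjusted p = 8.3e-04). Ependymal genes, of the cells that line the ventricle, were higher for 8 and lower for 0 of 13, with a median of 1.69. Foxj1, the master factor of motile cilia, was at 14.8, 11.4, 15.1, 39.3 and 43.7 CPM in the hippocampus and 2.87, 5.84, 4.72, 6.44 and 8.49 CPM in the cortex, without overlap (2.02 ± 0.22).

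Thalamic markers were higher for 7 of 11 and lower for 0, with a median of 1.31, beside 5.98% and 6.61% of all tested genes called. The thalamic markers summed to 202.7, 248, 257, 609 and 233 CPM in the hippocampal libraries and 94.1 to 109.6 CPM in the cortical ones. Hippocampal library 4 was far above the rest. Calb2, which also marks hilar mossy cells of the hippocampus itself, is counted among these genes and in this sum. It was at 69.7, 134, 95.3, 147 and 74.9 CPM in the hippocampus and 20.8 to 25.2 CPM in the cortex. Prkcd, a protein kinase C gene of the thalamus, was at 41.9, 35.5, 57.1, 191 and 64.6 CPM in the hippocampus and 14.6, 14.3, 20.5, 20.3 and 16.9 CPM in the cortex (1.90), with its call lost without pair 5 (1.89, edgeR adjusted p = 0.0563). Tcf7l2, a transcription factor of thalamic neurons, was at 8.78, 9.99, 17.99, 27.1 and 10.02 CPM in the hippocampus and 3.504, 4.75, 5.06, 2.07 and 2.56 CPM in the cortex (1.95 ± 0.30). Without pair 4, 6 thalamic genes were called, with a median of 1.067. Striatal markers gave 4 higher and 3 lower of 14, with Pdyn lower and Syndig1l (0.91 ± 0.18) higher. In a fit of all 20 libraries 0 striatal genes were higher and 2 lower. Their median difference was 0.78 in pair 5 and between -0.077 and 0.20 in the other pairs. Meningeal markers gave 1 higher and 2 lower of 19 (15.8%), near the 12.6% of all tested genes called. There were 3 higher without pair 5 and 1 lower without pair 1 or 4. Dcn, the decorin gene, which hippocampal neurons also express, was higher (1.55 ± 0.13), and Mgp was lower (-0.88 ± 0.18). The part of these markers in the neuronal and glial differences was not tested. Without pair 4 and without pair 5 the higher genes numbered 10 and 12 for pyramidal cell genes, 7 in both cases for granule cell genes and 16 and 20 for myelin genes.

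**Figure D3:**
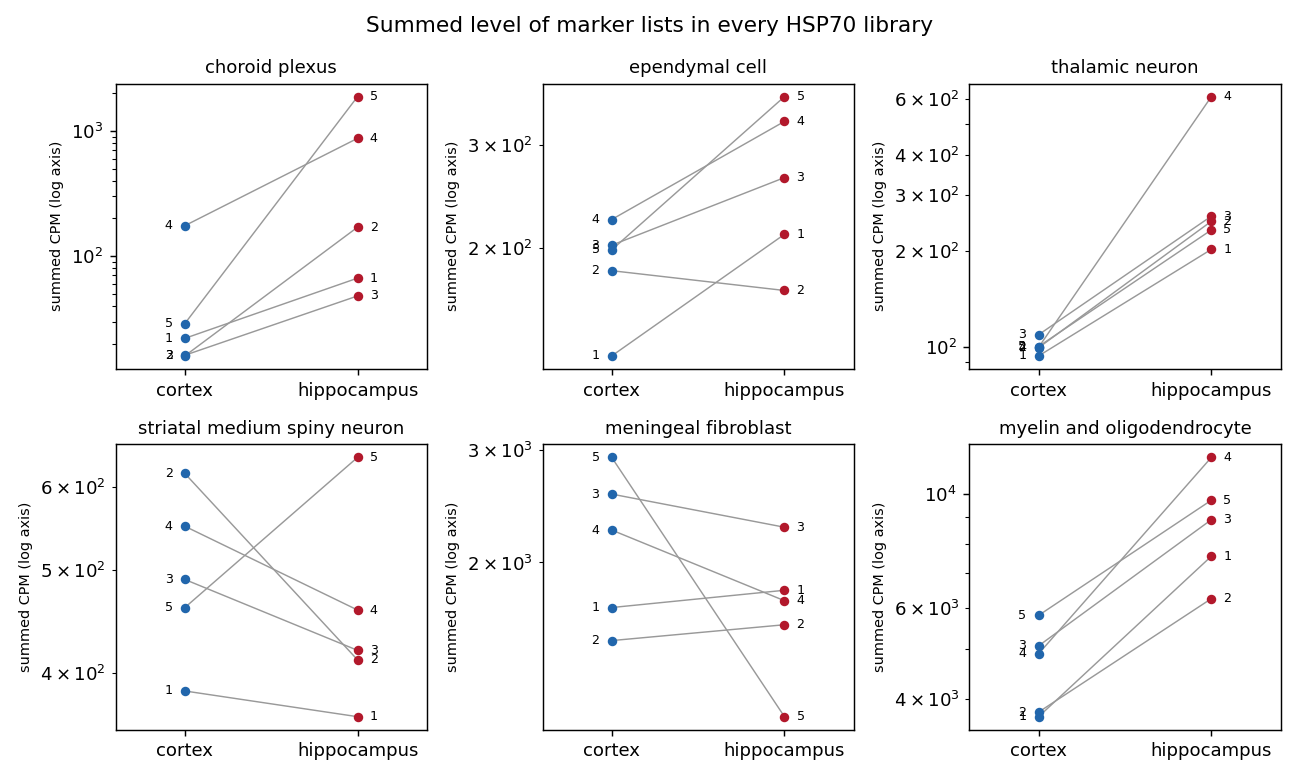
Summed CPM (y axis, log scale) of the members of 6 marker lists in the cortical (blue) and hippocampal (red) library of each pair, joined and numbered by replicate. Choroid plexus sums reach 1878 CPM in hippocampal library 5 and thalamic sums 609 CPM in hippocampal library 4, and myelin sums are higher in the hippocampus of all 5 pairs.

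The list of the mouse's own cytosolic HSP70s and their cochaperones also held HSP90 and small heat shock protein genes. Of its 24 tested genes 2 were higher and 1 lower (12.5%, beside 12.6% of all tested genes), with a median of -0.0072. The share was thus near that over all genes. The called members, Hsp90aa1, Hspb8 and Cryab, are not HSP70 genes. Hsp90aa1, an inducible HSP90 gene, was at 217, 144, 184, 142 and 216 CPM in the hippocampus and 336, 265, 232, 224 and 298 CPM in the cortex. The hippocampal values all lay below the cortical ones (-0.59 ± 0.12). Hspb8, a small heat shock protein gene, was higher (0.62 ± 0.12), as was the alpha B crystallin gene Cryab (0.47), whose call ended without pair 1, 3, 4 or 5 (0.38 to 0.46, edgeR adjusted p = 0.0776 to 0.139). Hspa1a, the inducible HSP70 gene, was at 4.198 ± 2.24 CPM in the hippocampus and 2.73 ± 0.573 CPM in the cortex, and its near-identical copy Hspa1b, which may share reads with it, at 10.3 ± 2.995 CPM in the hippocampus and 14.1 ± 3.67 CPM in the cortex (SD, n = 5). Neither was called (0.47 ± 0.33 and -0.46 ± 0.19). Hspa8, the constitutive member, was not called either (0.09 ± 0.12). The human protein that was delivered is not an RNA, and these values say nothing of its uptake. Ybx1, the mouse YB-1 gene, was not called in all 5 pairs (0.38 ± 0.13, edgeR adjusted p = 0.0556), but was called without pair 5 (0.42, edgeR adjusted p = 0.0388). Bc1 was not called either (-0.47 ± 0.29), but was called without pair 5 (-0.76, edgeR adjusted p = 0.0287).

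Of 26 tested genes of amyloid and tau biology 4 were lower and 1 higher, beside 6.61% and 5.98% of all tested genes. The kinase activator genes Cdk5r1 (-0.60 ± 0.11) and Cdk5r2 (-0.66 ± 0.15) and the tau kinase gene Gsk3b (-0.54) were lower, with Gsk3b losing its call without pair 1 (-0.52, edgeR adjusted p = 0.0645). Mapt, the tau gene, was lower (-0.36) and lost its call without pair 1, 2, 3, 4 or 5 (-0.40 to -0.30, edgeR adjusted p = 0.0506 to 0.172). Bace2 was higher (0.63), a call lost without pair 1, 2, 3 or 4 (0.59 to 0.66, edgeR adjusted p = 0.0735 to 0.119). App, Bace1 and Apoe were not called (-0.12, -0.03 and 0.25). The list had 0 higher genes and 2 to 3 lower ones without pair 1, 2, 3 or 4.

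Of the tested genes 4% of the interferon-stimulated, 12.5% of the MHC and 14.3% of the mitochondrial list were called, beside 12.6% of all genes. These shares were near or below that over all genes. Of 5 tested haemoglobin and erythroid genes 40% were called. Among 25 interferon-stimulated genes Ifi27 was called higher (0.53), and it lost its call without pair 1, 2, 4 or 5 (0.30 to 0.64, edgeR adjusted p = 0.0591 to 0.151). Without pair 5, 6 of these genes were lower, and a fit of all 20 libraries called 0 of them. Among 16 MHC genes H2-Eb1 was lower, at 18.8, 228, 218, 20.96 and 9.27 CPM in the hippocampus and 26.001, 397, 563, 24.2 and 14.6 CPM in the cortex (-0.72 ± 0.15), and H2-Aa was lower (-0.54) with its call lost without pair 1, 2 or 3 (-0.57 to -0.38, edgeR adjusted p = 0.0891 to 0.167). The count of lower MHC genes was 1 without pair 1, 2 or 3, 4 without pair 4 and 3 without pair 5. The haemoglobin genes Hbb-bs (-0.50) and Hbb-bt (-0.70) were called lower, and neither call held without pair 1, 2 or 4 (edgeR adjusted p = 0.122 to 0.128 for Hbb-bs and 0.0866 to 0.159 for Hbb-bt). Hbb-bt also lost its call without pair 3 (edgeR adjusted p = 0.102). Without pair 2 the log2 fold changes of Hbb-bs and Hbb-bt were -0.31 and -0.42. Of 7 tested mitochondrial genes mt-Nd6 was lower (-0.45), with its call lost without pair 1, 3 or 4 (-0.46 to -0.37, edgeR adjusted p = 0.0562 to 0.124). The mitochondrial genes mt-Nd3, mt-Nd4l, mt-Co3, mt-Atp6 and mt-Atp8 were listed at 0 in every library.

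**Figure D4:**
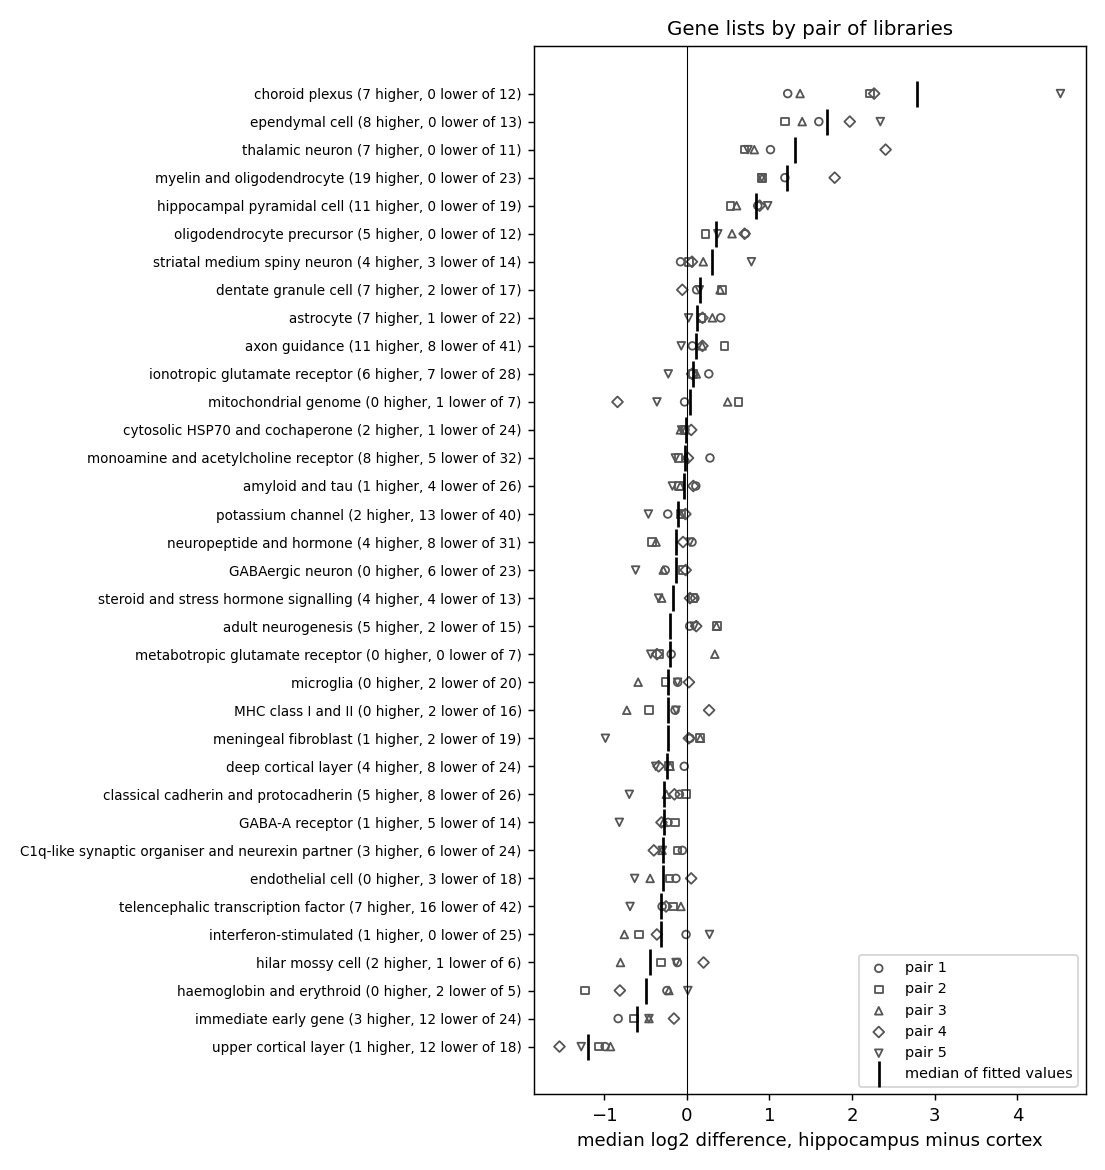
Median log2 difference of hippocampus minus cortex (x axis) over the tested members of each of 35 gene lists, as an open symbol for each of the 5 pairs and a bar for the median of the fitted values. Labels give the genes called. Choroid plexus genes have the highest median, 2.78, with pair 5 far to the right. Upper cortical layer genes have the lowest, -1.20, with pairs between -1.54 and -0.92.

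The same comparison in the mice given YB-1 called 1065 of 13694 genes (7.78%), 515 higher (3.76%) and 550 lower (4.02%). Of the genes called under HSP70 that were tested in both, 848 of 1758 were also called under YB-1 in the same direction (48.2%), which is 79.9% of 1061 YB-1 calls, and 0 were called in opposite directions. The sign agreed for 98.0% of the HSP70 calls and for 71.3% of all genes tested in both. Across genes the log2 fold changes had a Pearson correlation of 0.774 over all genes and 0.937 over the HSP70 calls, given as a description, since genes are not independent replicates. Fibcd1 was at 3.52 ± 0.14 under HSP70 and 2.84 ± 0.17 under YB-1, C1ql2 at 3.70 ± 0.20 and 3.70 ± 0.18, Lamp5 at -2.25 ± 0.13 and -2.20 ± 0.15, and Cux2 at -1.78 ± 0.12 and -1.98 ± 0.14. List medians under YB-1 were 0.69 for pyramidal cells, -1.05 for the upper layers, 1.02 for myelin and -0.27 for immediate early genes, beside 0.83, -1.20, 1.22 and -0.60 under HSP70. Not every list kept its sign. The striatal median was -0.28 under YB-1 and 0.31 under HSP70, and that of steroid and stress hormone signalling 0.021 and -0.16. The mitochondrial median was -0.21 and 0.034, and that of the chaperone list 0.041 and -0.0072.

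The difference between the regional differences of the treatments was tested with all 20 libraries and the pair as a block. edgeR's quasi-likelihood test called 0 of 14616 genes (0%), the lowest adjusted p being 0.999, and 409 genes had an unadjusted p under 0.05 (2.8%). With DESeq2, 0 genes were called and 442 had an unadjusted p under 0.05. With limma-voom these numbers were 0 and 590. With no filter on low counts edgeR called 8 genes. A p that misses the threshold does not show that the regional differences were equal. The smallest unadjusted p on the lower side belonged to Perp, a membrane protein gene of the p53 pathway, lower in the hippocampus of all 5 HSP70 pairs and higher in all 5 YB-1 pairs. It was at 3.11 ± 1.27 CPM in the hippocampus and 4.78 ± 0.971 CPM in the cortex with HSP70, and at 5.37 ± 2.26 and 2.40 ± 0.611 CPM with YB-1 (SD, n = 5). The difference of its log2 fold changes was -1.71 ± 0.44, with an edgeR adjusted p of 0.999. Gm26644, the noncoding gene named above, had regional log2 fold changes of 5.33 under HSP70 and 3.68 under YB-1, a difference of 1.64 ± 0.45. Depth differed between the treatments in the cortex (6414215 to 10763465 reads with YB-1), and its part in these values was not tested.

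**Figure D5:**
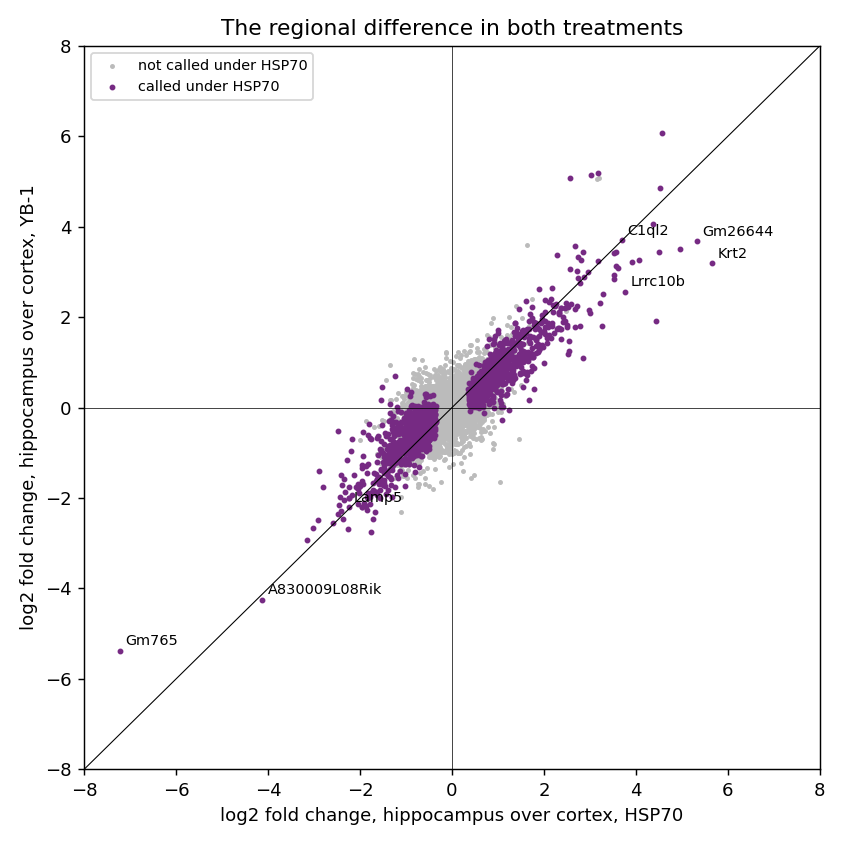
Log2 fold change of hippocampus over cortex under YB-1 (y axis) against the same under HSP70 (x axis), 1 point per gene tested in both. Purple points were called under HSP70, grey points were not, and the diagonal marks equal values. Most purple points lie in the lower left or upper right quadrant, where 98.0% of the HSP70 calls have the same sign in both treatments.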

How the data were processed

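Poly(A) RNA with an integrity number of at least 8 was sequenced single-end from a directional kit, per the labels' protocols. The authors deposited a table of raw read counts for each library, by Ensembl gene, with 55487 gene entries and 12 summary entries in each. Trimmomatic, STAR and featureCounts with GRCm39 are named in the submitters' processing notes. Tool versions, gene annotation and strand handling were not given in the sources used here, so genes that overlap or lie antisense to each other may share reads. Summary entries were left out of sizes and tests (reads outside genes 2.67% to 4.58%, ambiguous reads 4.12% to 4.56% of an HSP70 library).

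Counts were analysed with edgeR 4.0.16 in R 4.3.3 (TMM scaling, filterByExpr by group, robust quasi-likelihood fit, two-sided F-test, Benjamini-Hochberg threshold 0.05), and with DESeq2 1.42.0 and limma 3.58.1 as alternatives. CPM are TMM-scaled. Differences of single pairs use log2 CPM with a prior count of 2, and errors of fold changes are fitted standard errors. The scripts were tested on simulated counts with changes of 1.5-fold, 2-fold and 4-fold. There the HSP70 regional test recovered 47.7%, 69.7% and 97% of them, with 15 false among 156 calls. The interaction test recovered 7.69%, 49.3% and 86.2%, with 8 false among 102 calls. Symbols were matched by identifier for 99.4% of entries. Biotype, transcript lengths and chromosomes came from GENCODE M21, an annotation of an earlier build, so no gene coordinates are given. The promoters are RefSeq sequences of GRCm38.p6. No libraries of a group were duplicates (chi-square per degree of freedom of at least 12.5 in the HSP70 groups and 10.1 in the YB-1 groups).

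Same-numbered libraries were taken as pairs. Their deviations from the group means correlated at 0.168 to 0.635 over 14307 genes, and 5 of 5 hippocampal libraries correlated best with their own number. The margin was narrow for libraries 2 (0.218 against 0.213), 4 (0.191 against 0.172) and 5 (0.238 against 0.214). In the other direction, cortical library 3 correlated best with hippocampal library 4 (0.172 against 0.168). Cortical library 4 did so with hippocampal library 5 (0.214 against 0.191). These values do not settle the pairing.

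The comparison and its 35 gene lists (706 symbols, all matched) were chosen with earlier results of these data known. Named by rule were the 15 called genes of smallest p in each direction, the 8 of largest change with a mean of at least 1 CPM, the 3 members of smallest p in each list (all members of lists of 8 or fewer), 4 genes of the delivered proteins and Bc1, and 3 interaction genes in each direction. Other list members named were chosen after their values were seen. Some genes that the rule names are not reported here.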

Additional observations from a re-analysis of the deposited data

Results flagged for a closer look

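In each region the summed level of every list and several library measures were checked for a library that stood apart from the other 4. This was found in 6 of 76 groups of 5 values, and chance gives about 1 in 20. The summed level of thalamic markers was 609.2 CPM in hippocampal library 4, against 202.7 to 257 CPM in the others. Bc1 took 20.3% of the reads of hippocampal library 5, against 6.45% to 9.34%. The summed level of choroid plexus markers was 174.7 CPM in cortical library 4, against 15.9 to 28.8 CPM. Metabotropic glutamate receptor genes summed to 166.3 CPM in cortical library 3, against 208.5 to 225 CPM, and axon guidance genes of the same library to 1111 CPM, against 1189 to 1215 CPM. Cadherin and protocadherin genes summed to 1067 CPM in cortical library 2, against 896 to 932 CPM.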

How the results depend on the processing

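The pair was a block, because libraries of the same number were taken as pairs. With no replicate block 1146 genes were called in place of 1802, of which 1141 were shared. Leaving out 1 pair gave 1117 to 1937 calls, the lowest without pair 1 and the highest without pair 5, and 550 to 687 calls of at least 2-fold. The other scalings, tests and filters gave 1487 to 2664 calls, the most with limma-voom, and DESeq2 gave 2039. With no filter on low counts the interaction between region and treatment gave 8 calls in place of 0. Of 1753 values of named genes under the alternatives, 1659 kept direction and call, 68 lost the call, 18 gained it and 8 reversed. All reversals were of genes that were not called. They were Grm7 without pair 2 (-0.054) or 3 (-0.067), Grm4 with no filter (-0.011) and without pair 1 (-0.060), 3 (-0.11) or 4 (-0.13), mt-Co1 without pair 5 (0.023) and mt-Nd5 without pair 4 (0.062); the cause was not tested. Leaving out 1 pair gave -0.067 to 0.12 for Grm7, -0.13 to 0.23 for Grm4, -0.30 to 0.023 for mt-Co1 and -0.28 to 0.062 for mt-Nd5. The median of the chaperone list was -0.071 without pair 4. By level, 7.52% of genes in the lowest quartile of mean level were called against 16.9% in the highest; whether depth sets this was not tested.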
